A study of Mus musculus with 4 samples.

Results

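CD8 T cells, the T lymphocytes that kill infected and malignant cells, were picked out of liver tumours by their own transcripts. Cells were kept if they held at least 300 genes and at most 25% of their UMIs (unique molecular identifiers, each standing for 1 captured RNA molecule) came from mitochondrially encoded genes. A CD8 T cell then had to show at least 2 different genes of Cd3d, Cd3e, Cd3g, Trac and Trbc2, which encode parts of the T cell receptor complex, and at least 1 UMI of Cd8a or Cd8b1, the chains of the CD8 co-receptor. It had to lack any UMI of Cd4, of the B cell gene Cd79a and of the macrophage gene C1qa. The rule found 1016 of 25715 cells kept, 31 of 6209 in KLF2 replicate 1, 99 of 11103 in KLF2 replicate 2 and 886 of 8403 in vector replicate 2. Values of the genes in the rule chose the cells and are only described: Cd3e had 499.5 and 217 CPM in the KLF2 libraries, against 344 CPM in the vector library, and Cd8b1 968 and 434 CPM in the KLF2 libraries, against 379 CPM in the vector library.

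Both groups were male C57BL/6 mice, labelled 18 weeks old, that carried liver tumours driven by the oncogenes c-MYC and AKT. In the KLF2 group, hydrodynamic tail vein injection had delivered the KLF2 plasmid pT3-EF1α-KLF2 beside the oncogene plasmids pT3-EF1α-AKT and pT3-EF1α-c-MYC with SB100X, a transposase that inserts such plasmids into the genome. In the vector group the pT3 empty vector took the place of pT3-EF1α-KLF2. Hydrodynamic injection reaches mainly hepatocytes, so the plasmids were directed to liver cells by the route, while the EF1α promoter is active in most cell types. Which cells took up the plasmids was not tested. Tumours were taken 10 weeks after injection, and each library came from 1 mouse. The matrix of vector replicate 1 was not analysed here, so 2 KLF2 libraries were set against 1 vector library.

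CD8 T cells leave the thymus as naive cells, which recirculate through lymph nodes with the homing receptor Ccr7 and the egress receptor S1pr1, and hold the transcription factors Tcf7 and Lef1. The transcription factor KLF2 keeps S1pr1 on in quiescent T cells. On antigen they become effector cells with granzymes, perforin and interferon gamma, and under lasting antigen, as in tumours, they can become exhausted, with Tox and inhibitory receptors such as Pdcd1 and Lag3. In liver and tumour some settle as resident cells that lower Klf2 and S1pr1.

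The label was first set against genes that the rule did not use, in control cells of the same library, which had no UMI of the 5 T genes, Cd8a, Cd8b1, Cd4 or 6 NK genes. These were 5527 of 6209 and 9847 of 11103 cells in the KLF2 libraries, at medians of 8268 and 5581 UMIs. In the vector library they were 2369 of 8403 cells, at a median of 2421 UMIs. The control cells are thus unlike sets in the 2 groups, here and below. Nkg7, a membrane protein of cytotoxic granules, had 1927 and 891 CPM in the KLF2 libraries, against 741 CPM in the vector library, where the control cells had 0.856 and 1.41 CPM in the KLF2 libraries and 50.8 CPM in the vector library. Ccl5, a chemokine of activated and memory CD8 T cells, had 11530 and 5353 CPM in the KLF2 libraries, against 4308 CPM in the vector library, and the control cells 11.2 and 42.4 CPM in the KLF2 libraries and 314 CPM in the vector library. Lck, the kinase that works with the CD8 tail, had 280.4 and 143 CPM in the KLF2 libraries, against 274 CPM in the vector library, and the control cells 1.46 and 1.66 CPM in the KLF2 libraries and 27.7 CPM in the vector library. All 3 genes were thus high in the chosen cells of every library. That sets the chosen cells apart from cells without T and NK genes only. None of the 3 genes was called between CD8 and CD4 T cells in the comparison below. CPM are a gene's UMIs scaled to 1e6 UMIs of those cells in that library. Cd8a without Cd8b1 was seen in 2 of 31 and 8 of 99 KLF2 cells and 204 of 886 vector cells, and only 1 UMI of the 2 genes together in 9.68% and 20.2% of the KLF2 cells and 30.8% of the vector cells. Just inside the rule, exactly 2 of the 5 T genes were seen in 0% and 10.1% of the KLF2 cells and 19.1% of the vector cells, and just outside it, a CD8 UMI with exactly 1 T gene was found in 0 and 5 KLF2 cells and 144 vector cells.

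The libraries differed in ways that touch every comparison of KLF2 with vector. A CD8 T cell had a median of 5670 and 4644 UMIs in the KLF2 libraries and 3821 in the vector library, and the 31, 99 and 886 cells together gave 196182, 621913 and 4737791 UMIs. Mitochondrially encoded genes made up a median of 0.154% and 0.197% of a cell's UMIs in the KLF2 libraries and 10.6% in the vector library. Of 12 hepatocyte markers, 8 were at 0 in the CD8 T cells of each KLF2 library, and their sum was 20.4 and 25.7 CPM there, against 1303 CPM in the vector library. For 10 endothelial markers the sum was 71.4 and 147.9 CPM in the KLF2 libraries and 1169 CPM in the vector library, and for 10 tumour and biliary markers it was 576 and 2174 CPM in the KLF2 libraries and 167 CPM in the vector library. Library and group cannot be told apart with 1 vector library, and the part of these differences in the results below was not tested. Cell names are running numbers, and 1 name was shared between members of KLF2 replicate 2 and vector replicate 2.

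CD8 T cells made up a smaller share of the cells of both KLF2 libraries. They were 0.499% of cells in KLF2 replicate 1 (Wilson 95% interval 0.352% to 0.708%) and 0.892% in KLF2 replicate 2 (0.733% to 1.084%), against 10.5% in vector replicate 2 (9.91% to 11.2%). With each cell thinned to 1000 UMIs before the rule was applied, the shares were 0.403% and 0.360% in the KLF2 libraries and 4.61% in the vector library. Intervals cover counting error only. The cell filters kept 6209 of 6282 and 11103 of 11240 barcodes in the KLF2 libraries and 8403 of 12852 in the vector library. A further 101 vector cells, and 0 cells of each KLF2 library, met the rule but for over 25% mitochondrial UMIs. The groups did not overlap, but an exact permutation test of 2 libraries against 1 gave a two-sided p of 0.333, the smallest that 3 libraries allow. The T cell transcripts were also widespread in the vector library: at least 2 of the 5 T genes were seen in 1.56% and 3.31% of all cells in the KLF2 libraries and in 43.97% in the vector library. Endothelial cells, picked by at least 2 endothelial genes and no UMI of the leukocyte gene Ptprc, served as a comparison. They showed at least 2 T genes in 0 of 150 and 0 of 301 cells in the KLF2 libraries and in 338 of 1433 (23.6%) in the vector library, at medians of 14250, 7711 and 4364 UMIs. The whole CD8 rule was met by none of them in the KLF2 libraries (Wilson upper bounds 2.497% and 1.26%) and by 47 (3.28%, 2.48% to 4.33%) in the vector library, and thinned by 9 of 1413 (0.637%). The vector share of 10.5% therefore lay above the 3.28% of these endothelial cells, which was itself higher than both KLF2 shares. The 886 vector cells include those 47. Vector CD8 T cells held 1169 CPM of endothelial markers, so whether those 47 are T or endothelial cells cannot be told. The part of T cell transcripts outside T cells in the difference of shares and in the gene comparisons was not tested. Other cells set the denominator too, so fewer CD8 T cells and more tumour cells per library cannot be told apart. Within the T cells, CD8 cells were 67.4% and 63.1% of the CD8 and CD4 cells together in the KLF2 libraries (52.97% to 79.1% and 55.3% to 70.2%) and 53.6% in the vector library (51.2% to 56.0%). Thinned, that share was 92.6% and 71.4% in the KLF2 libraries, from 27 and 56 cells, and 57.1% in the vector library.

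**Figure D1:**
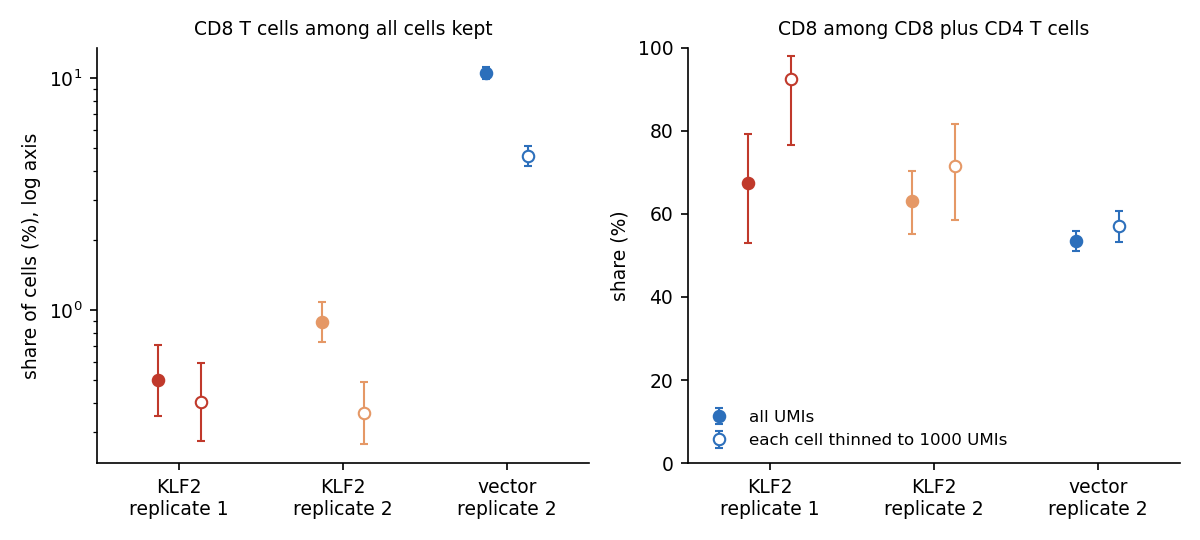
The left panel plots CD8 T cells as a percent of all cells kept (log axis) and the right panel CD8 as a percent of CD8 plus CD4 T cells, per library, with Wilson 95% intervals; filled points use all UMIs and open points cells thinned to 1000 UMIs. The KLF2 libraries sit at 0.499% and 0.892% on the left, below 10.5% in the vector library.

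Naive, effector and exhausted states were read from 3 lists of 10 genes each. A cell thinned to 1000 UMIs leaned to the list of which it showed the most genes, if at least 2, so the classes are ranges of a count and not types. Naive-leaning cells were 12.9% and 13.1% of the CD8 T cells in the KLF2 libraries (4 and 13 cells) and 9.33% in the vector library (82 cells). Effector-leaning cells were 12.9% and 6.06% in the KLF2 libraries (4 and 6 cells) and 7.05% in the vector library (62 cells), and exhausted-leaning cells 12.9% and 7.07% in the KLF2 libraries (4 and 7 cells) and 7.62% in the vector library (67 cells). The intervals of all 3 shares overlapped between the libraries of both groups, as the plot of state calls shows. They cover the counting of cells only, and with 1 vector library a difference between the groups could not be judged from them. Most cells, 54.8% and 69.7% in the KLF2 libraries and 74.6% in the vector library, showed fewer than 2 genes of each list. In endothelial cells, which should not hold these states, the same rule gave naive-leaning shares of 10.7% and 10.96% in the KLF2 libraries and 7.08% in the vector library, within the intervals of the CD8 shares of each library except for the vector library, where 7.08% lay under the lower bound of 7.58%. The naive-leaning share of CD8 T cells was therefore close to that of endothelial cells. Whether endothelial cells make genes of the naive list, such as S1pr1, themselves was not tested, so their share need not be background. Endothelial cells gave effector-leaning shares of 0%, 0% and 0.354%, and exhausted-leaning shares of 1.33%, 1.66% and 1.13%, in the order of the libraries above. For these 2 states the CD8 shares stood above the endothelial shares in every library. At 1000 UMIs, 10 of the 31 cells of KLF2 replicate 1 (32.3%), 14.1% of the cells of KLF2 replicate 2 and 12.6% of the vector cells showed a gene of both the effector and the exhausted list, and the classes moved with the threshold and the depth.

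**Figure D2:**
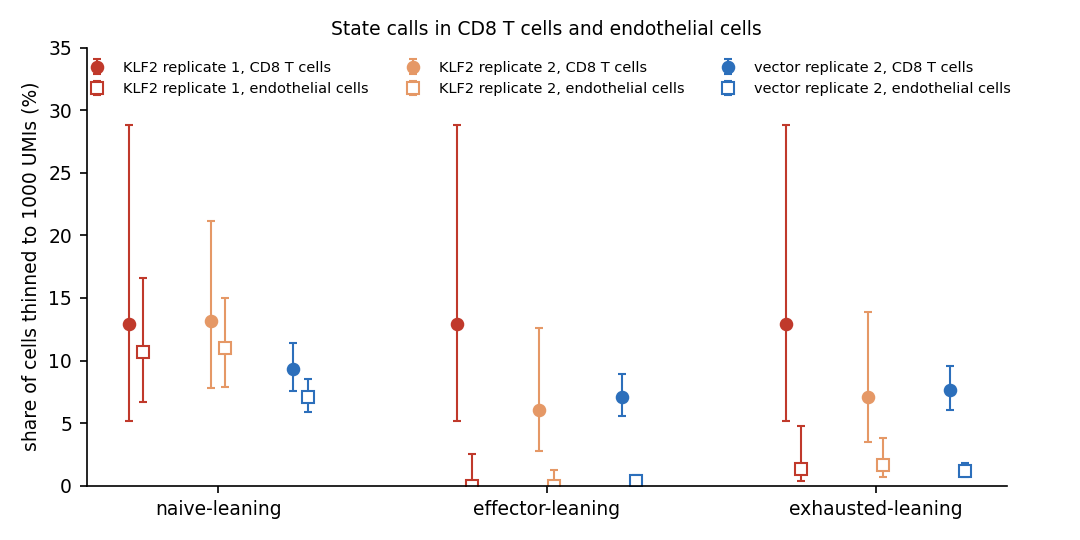
Percent of cells leaning to each state after thinning to 1000 UMIs, with Wilson 95% intervals, for CD8 T cells (filled circles) and endothelial cells (open squares) of KLF2 replicates 1 and 2 and vector replicate 2. Effector- and exhausted-leaning shares of CD8 T cells lie between 6.06% and 12.9% where endothelial cells reach at most 1.66%, while naive-leaning shares of both cell types lie between 7.08% and 13.1%.

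Genes outside the 3 lists ran in the same order across the states in several libraries. They were chosen after their values were seen and are given without a test, in CPM for naive-, effector- and exhausted-leaning cells in that order, and the classes of KLF2 replicate 1 hold only 4 cells each. Klf2 had 656, 49.5 and 0 CPM in KLF2 replicate 1, 962, 775 and 27.0 CPM in KLF2 replicate 2, and 806, 388 and 318 CPM in vector replicate 2. It was highest in naive-leaning and lowest in exhausted-leaning cells of all 3 libraries, although KLF2 replicate 1 rests on 15, 1 and 0 UMIs, and 0 UMIs allow up to 202 CPM (exact Poisson 95% interval). Ly6c2, a surface protein of memory and recently activated CD8 T cells, had 219, 0 and 0 CPM in KLF2 replicate 1, 879, 161 and 0 CPM in KLF2 replicate 2, and 876, 231 and 143 CPM in vector replicate 2. Ccl5 had 2670, 45990 and 12020 CPM in KLF2 replicate 1, 2245, 7037 and 6531 CPM in KLF2 replicate 2, and 2862, 9332 and 7633 CPM in vector replicate 2, and Nkg7 had 788, 5538 and 1427 CPM in KLF2 replicate 1, 558, 1388 and 1160 CPM in KLF2 replicate 2, and 476, 1606 and 1443 CPM in vector replicate 2. Both were lowest in naive-leaning cells of every library. Nr4a2, a nuclear receptor induced by T cell receptor signals and linked to exhaustion, had 43.8, 198 and 439 CPM in KLF2 replicate 1, 69.7, 194 and 432 CPM in KLF2 replicate 2, and 67.3, 208 and 487 CPM in vector replicate 2, and Rgs1 had 219, 1582 and 1591 CPM in KLF2 replicate 1, 432, 807 and 891 CPM in KLF2 replicate 2, and 120.3, 235 and 248 CPM in vector replicate 2. Cxcr6, a homing receptor of liver-resident T cells, had 0, 346 and 494 CPM in KLF2 replicate 1, 41.8, 194 and 351 CPM in KLF2 replicate 2, and 28.9, 114 and 191 CPM in vector replicate 2. All 3 were lowest in naive-leaning and highest in exhausted-leaning cells of each library.

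In the vector library, whose states hold 62 to 82 cells, the chemokine genes stood out further. Ccl3 had 48.1, 360.3 and 872 CPM in naive-, effector- and exhausted-leaning cells, Ccl4 had 248, 897 and 2455 CPM, and Xcl1, which attracts cross-presenting dendritic cells, had 135, 164 and 849 CPM. The survival gene Bcl2 ran the other way, with 259.8, 102 and 107 CPM. The proliferation genes were higher in effector- and exhausted-leaning cells of that library: Hmgb2 had 277, 1241 and 1181 CPM, Stmn1 45.7, 309 and 295 CPM and Mki67 33.7, 129 and 177 CPM. KLF2 replicate 2, with 13, 6 and 7 cells in the states, had another order for each of these genes. There the proliferation genes were highest in naive-leaning cells: Hmgb2 had 1367, 613 and 702 CPM, Stmn1 167, 64.6 and 27.0 CPM and Mki67 55.8, 32.3 and 27.0 CPM, the last from 4, 1 and 1 UMIs. Bcl2 was highest in exhausted-leaning cells, with 167, 129 and 297 CPM, and Ccl3 and Ccl4 had 97.6, 32.3 and 189 CPM and 432, 904 and 243 CPM. Xcl1 had 376.5, 64.6 and 1484 CPM, highest in exhausted-leaning cells as in the vector library. Apart from the high Xcl1 and Ccl3 of exhausted-leaning cells, the highest state of these genes differed between the 2 libraries. KLF2 replicate 1, with 4 cells in each state, was nearer to the vector library: Hmgb2 had 175, 1335 and 1097 CPM, Mki67 0, 148 and 329 CPM, Stmn1 0, 742 and 54.9 CPM and Ccl4 87.5, 247 and 1372 CPM, with Bcl2 at 350.1, 49.5 and 165 CPM. For these 5 genes its highest state was that of the vector library, for Ccl3, with 0, 692 and 274 CPM, it was not, and the orders thus differ within the KLF2 group.

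Across the whole CD8 population, few genes of the 3 state lists passed the test between KLF2 and vector. The edgeR quasi-likelihood test called 527 of 7538 genes tested (6.99%), 256 higher (3.4%) and 271 lower (3.6%) in KLF2, at a Benjamini-Hochberg adjusted p under 0.05. The adjusted p-values and fold changes below are from that fit. Higher genes were 48.6% of its calls, against 71.96% with DESeq2, which called 154 higher and 60 lower. Only the 2 KLF2 libraries give a spread, on 1 residual degree of freedom, which the test carries over to the lone vector library. Of the 10 naive genes 1 rose (Lef1), with a median log2 fold change of -0.01, and of the 9 effector genes tested 1 rose (Gzma), with a median of 0.40, while Cx3cr1 was too low to test. None of the 10 exhausted genes was called, at a median of 0.03, where all genes tested had a median of -0.01. At 6.99% called over all genes, 2 called of 29 state genes is near the background share.

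Among naive genes only Lef1 passed the test. Lef1, a partner of Tcf7 in naive and memory cells, had 127 and 117 CPM in the KLF2 libraries, against 28.1 CPM in the vector library (log2 fold change 1.85, SE 0.56, adjusted p 0.0203). It was called in 5 of 9 alternatives, and lost with DESeq2, without the low-count filter, with equal cells and after thinning (edgeR adjusted p 0.884 thinned). The control cells without T and NK genes had 118 and 115 CPM in the KLF2 libraries and 3.54 CPM in the vector library. Tcf7 had 168 and 132 CPM, against 97.3 CPM in the vector library, and control cells had 139 and 111 CPM in the KLF2 libraries and 9.72 CPM in the vector library. Ccr7, the lymph node homing receptor, had 51.0 and 83.6 CPM, against 47.7 CPM in the vector library, with 22 of the 52 Ccr7 UMIs of KLF2 replicate 2 in 1 cell. Without the top cell of each library, Ccr7 had 20.4 and 48.2 CPM in the KLF2 libraries and 43.5 CPM in the vector library, so that KLF2 replicate 1 lay below the vector library. Tcf7 lay above the vector library in both KLF2 libraries with and without that cell, and neither gene passed the test. For the interleukin 7 receptor Il7r the values were 86.7 and 64.3 CPM, against 76.2 CPM in the vector library. S1pr1 had 51.0 and 16.1 CPM, against 42.6 CPM in the vector library, so that the vector library lay between the KLF2 libraries. The chromatin organiser Satb1 had 45.9 and 49.8 CPM, against 75.1 CPM in the vector library. Dapl1, a gene of quiescent T cells, had 56.1 and 138 CPM, against 42.2 CPM in the vector library. These 2 genes lay on opposite sides of the vector library. Dapl1 without the top cell of each library had 30.6 and 80.4 CPM in the KLF2 libraries and 34.0 CPM in the vector library. KLF2 replicate 1 then lay below the vector library. Igfbp4 had 91.8 and 54.7 CPM, against 100.5 CPM in the vector library. The values of Actn1 were 25.5 and 64.3 CPM, against 51.5 CPM in the vector library. None of these genes but Lef1 passed the test (edgeR adjusted p 0.355 or more).

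Of the effector genes, Gzma, the granzyme abundant in killer lymphocytes of liver, was the only one called. It had 316 and 309 CPM in the KLF2 libraries, against 30.6 CPM in the vector library (log2 fold change 3.09, SE 0.59, adjusted p 3.19e-05), and control cells had 2.99 and 26.3 CPM in the KLF2 libraries and 1.71 CPM in the vector library. A single cell held 56 of 62, 72 of 192 and 52 of 145 Gzma UMIs in KLF2 replicate 1, KLF2 replicate 2 and vector replicate 2, and without that cell's UMIs the levels were 30.6 and 193 CPM in the KLF2 libraries and 19.6 CPM in the vector library. Gzma was seen in 12.9% and 15.2% of the cells of the KLF2 libraries and in 3.95% of the vector cells, and, thinned to 1000 UMIs, in 9.68% and 6.06% of the KLF2 and 1.82% of the vector cells. Gzmb had 158 and 65.9 CPM, against 53.0 CPM in the vector library. Gzmk had 189 and 64.3 CPM, against 69.0 CPM in the vector library. For both, KLF2 replicate 1 was high and KLF2 replicate 2 was near the vector library. Perforin (Prf1) had 56.1 and 30.6 CPM, against 51.3 CPM in the vector library. Interferon gamma (Ifng) had 71.4 and 67.5 CPM, against 115 CPM in the vector library. The death ligand Fasl had 25.5 and 37.0 CPM, against 20.7 CPM in the vector library. For Ifng both KLF2 libraries lay below the vector library and for Fasl both above it, without a call. Without the top cell of each library Fasl had 15.3 and 33.8 CPM in the KLF2 libraries and 19.8 CPM in the vector library, so that KLF2 replicate 1 lay below it. The effector transcription factor Tbx21 had 40.8 and 48.2 CPM, against 54.0 CPM in the vector library. Its partner Zeb2 had 30.6 and 24.1 CPM, against 40.1 CPM in the vector library. Klrg1, a receptor of terminal effectors, had 30.6 and 14.5 CPM, against 4.22 CPM in the vector library, from 6, 9 and 20 UMIs.

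Exhaustion genes did not pass the test in either direction. Pdcd1, the PD-1 receptor, had 122 and 103 CPM, against 68.8 CPM in the vector library (log2 fold change 0.43, SE 0.52, adjusted p 0.808), while control cells had 0.0263 and 0.250 CPM in the KLF2 libraries and 4.73 CPM in the vector library. Tox, the transcription factor that sustains exhaustion, had 234 and 105 CPM, against 88.4 CPM in the vector library (adjusted p 0.664), high in KLF2 replicate 1. Lag3 had 20.4 and 4.82 CPM, against 31.4 CPM in the vector library (log2 fold change -2.00, adjusted p 0.11). These 3 genes show both directions. The CD28 competitor Ctla4 had 96.8 and 46.6 CPM, against 66.5 CPM in the vector library. Tnfrsf9, the 4-1BB receptor, had 66.3 and 74.0 CPM, against 31.9 CPM in the vector library. Havcr2 (TIM-3) had 20.4 and 19.3 CPM, against 13.5 CPM in the vector library. The last of these rests on few UMIs, as does Tigit with 30.6 and 14.5 CPM, against 5.91 CPM in the vector library. The ectoenzyme Entpd1 (CD39) had 30.6 and 12.9 CPM, against 20.7 CPM in the vector library. The ectoenzyme Cd38 had 40.8 and 27.3 CPM, against 31.2 CPM in the vector library. Rgs16 had 66.3 and 125 CPM, against 107 CPM in the vector library. Of these 10 genes, KLF2 was above vector in both libraries for Pdcd1, Tox, Tnfrsf9, Havcr2 and Tigit, and below it in both for Lag3. Without the top cell of each library this held for all of them but Havcr2, which had 10.2 and 9.65 CPM in the KLF2 libraries and 12.5 CPM in the vector library. With the 5% of cells with most UMIs left out, Tnfrsf9 and the naive gene Dapl1 were higher (edgeR adjusted p 0.023 and 0.0216, where 4.16% of genes were higher and 5.24% lower).

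**Figure D3:**
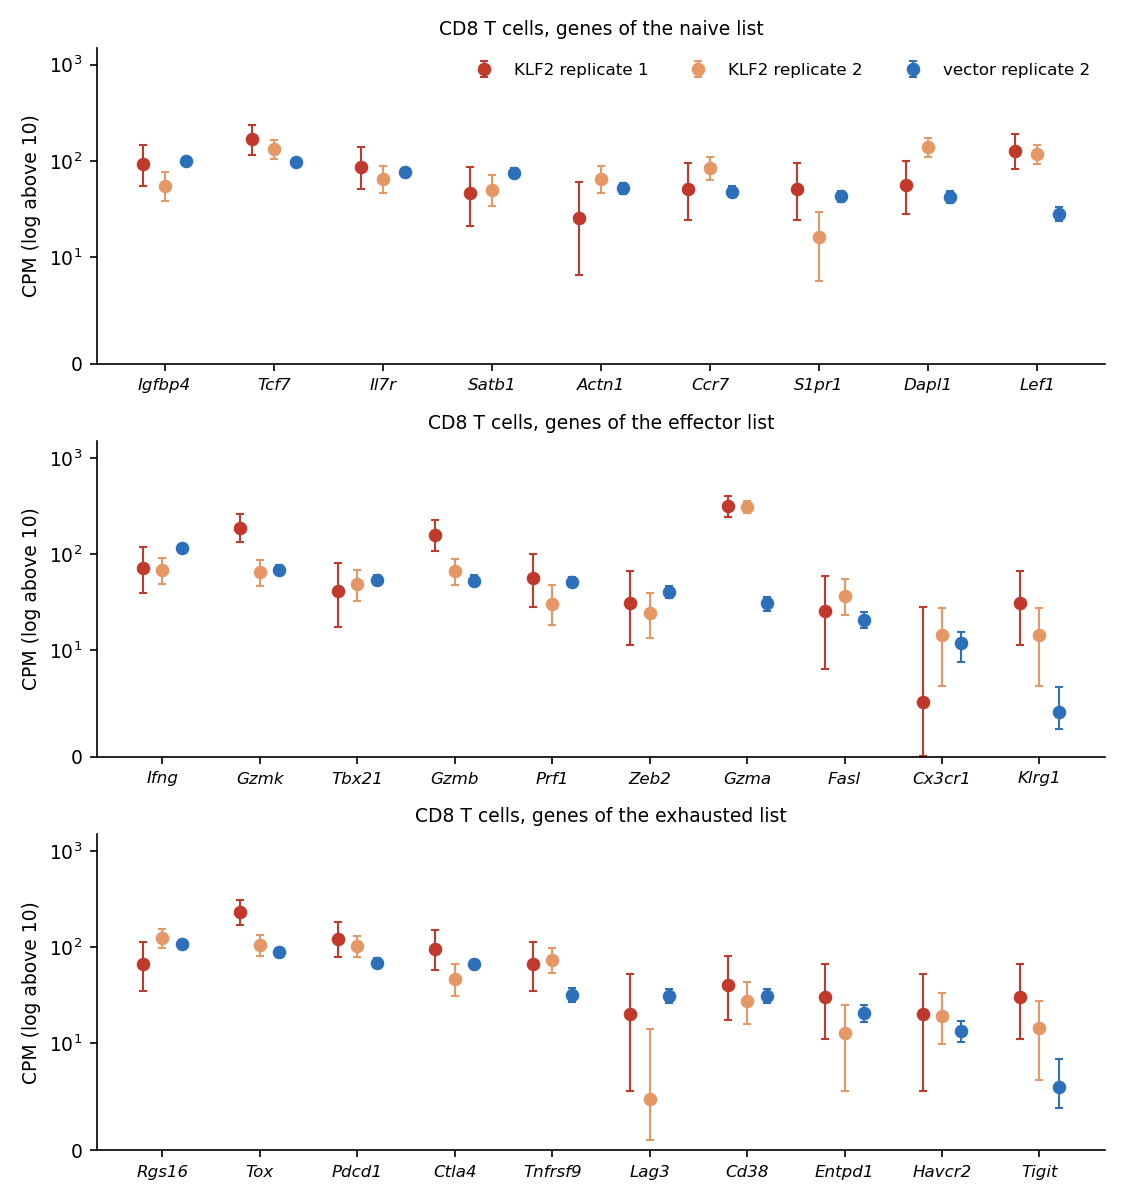
CPM of 29 genes of the state lists in CD8 T cells (axis linear to 10 and logarithmic above), with exact Poisson 95% intervals, in KLF2 replicate 1, KLF2 replicate 2 and vector replicate 2 from left to right within each gene. Gzma and Lef1 are the 2 genes that passed the test, with both KLF2 points above the vector point.

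The called genes were then set beside their levels in the surroundings. Of the 527, 46 (8.73%) had at least 2-fold more CPM in CD8 T cells than in cells without T and NK genes, 20 of the higher and 26 of the lower ones, read in the group where the gene was high. That criterion was added after seeing the data, and since the change decides in which group a level is read, the split is a description only. Rgs1, 1 of the 20 and a gene that damps chemokine receptor signals and is high in resident T cells, had 790.1 and 622 CPM in the KLF2 libraries, against 157 CPM in the vector library (log2 fold change 1.90, SE 0.55, adjusted p 0.0142) and 87.0 and 196 CPM in the KLF2 libraries and 80.9 CPM in the vector library in control cells. It was seen in 74.2% and 68.7% of the cells of the KLF2 libraries and in 36.8% of the vector cells, and thinned in 32.3% and 38.4% of the KLF2 and 14.9% of the vector cells, where endothelial cells had it in 1.33% and 4.65% of the KLF2 and 4.25% of the vector cells. Gpr183, the oxysterol receptor that guides lymphocytes within tissue, had 199 and 249 CPM in the KLF2 libraries, against 53.0 CPM in the vector library (log2 fold change 1.83, SE 0.55, adjusted p 0.019), with 6.82 and 9.99 CPM in the KLF2 libraries and 24.0 CPM in the vector library in control cells. The lectin receptor Klre1 of NK cells and some CD8 T cells had 66.3 and 70.7 CPM in the KLF2 libraries, against 16.5 CPM in the vector library (log2 fold change 1.80, SE 0.57, adjusted p 0.0323), where the control cells are no comparison, since they were chosen without it. Trgv2, a V segment of the T cell receptor gamma locus, had 81.6 and 108 CPM in the KLF2 libraries, against 19.8 CPM in the vector library (log2 fold change 2.02, SE 0.57, adjusted p 0.0118), with 0.0658 and 0.0384 CPM in the KLF2 libraries and 0.525 CPM in the vector library in control cells. For all 4 genes both KLF2 libraries lay above the vector library. Rgs1 was called in 8 of 9 alternatives that gave it a test, Gpr183 in 6 of 9, Klre1 in 4 of 8 and Trgv2 in 5 of 9, leaving aside the demand for a Cd8b1 UMI, under which no gene was called.

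Also among the 20 was St6galnac3, a sialyltransferase, with 102 and 46.6 CPM, against 9.50 CPM in the vector library. The methyltransferase gene Smyd3 had 71.4 and 75.6 CPM, against 10.8 CPM in the vector library. Ldlrad4, an inhibitor of TGF-beta signalling, had 81.6 and 59.5 CPM, against 12.7 CPM in the vector library. Patl2, of the PAT1 family of RNA-binding proteins, had the largest fitted rise of the 12 genes named by size. It had 433 and 228 CPM in the KLF2 libraries, with 32.3 and 53.7 CPM in their control cells, and was seen in 80.6% and 70.7% of their CD8 T cells. Patl2 was missing from the gene list of vector replicate 2 though it was in that of vector replicate 1, so that no fold is given and its call rests on a level entered as 0. Of the 256 higher genes 63 had no UMI in the vector CD8 T cells, and 35 of them were missing from the list of vector replicate 2 in the same way, which leaves 221 higher genes that were listed in all 3 libraries. What sets the difference between the gene lists was not tested.

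Among the 26 lower genes were Cd6 and Cd5, neighbouring genes for scavenger receptor family proteins that tune T cell receptor signals (GRCm38 chr19:10789341-10830058 and chr19:10717116-10739002, minus strand). Cd6 had 25.5 and 40.2 CPM in the KLF2 libraries, against 145 CPM in the vector library (log2 fold change -2.32, SE 0.53, adjusted p 8.07e-04). Cd5 had 25.5 and 41.8 CPM, against 96.7 CPM in the vector library (log2 fold change -1.69, SE 0.54, adjusted p 0.0337). Control cells had 0.0395 and 0.173 CPM in the KLF2 libraries and 13.8 CPM in the vector library for Cd6. Nr4a1, an immediate early gene of receptor signalling, had 76.5 and 138 CPM in the KLF2 libraries, against 407 CPM in the vector library (log2 fold change -2.13, SE 0.50, adjusted p 0.00117), and control cells had 81.0 and 141 CPM in the KLF2 libraries and 99.9 CPM in the vector library, so that it stood above the control cells in the vector library alone. Arhgap45, a GTPase regulator of leukocytes, had 153 and 172 CPM, against 464 CPM in the vector library (adjusted p 0.0107). Akna had 76.5 and 43.4 CPM, against 158 CPM in the vector library (adjusted p 0.0181). Nfkbid, a nuclear regulator of NF-kappaB, had 25.5 and 40.2 CPM, against 129 CPM in the vector library (adjusted p 0.00269). For each of these 6 genes both KLF2 libraries lay below the vector library. DESeq2 called Nr4a1 but not the other 5, and Cd5 was called in 4 of 9 alternatives, Cd6 and Nr4a1 in 8 of 9 each.

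**Figure D4:**
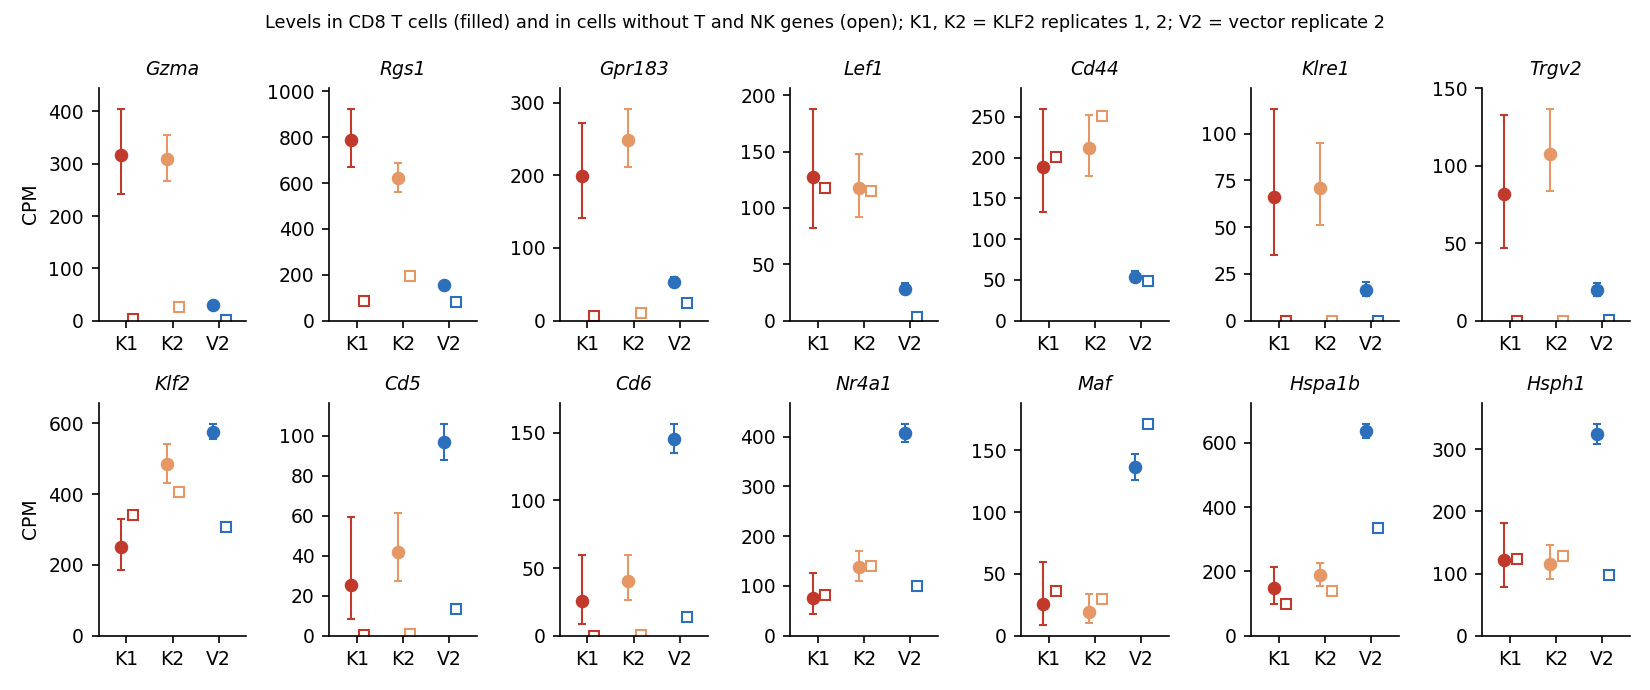
CPM of 14 genes in CD8 T cells (filled circles, exact Poisson 95% intervals) and in cells without T and NK genes (open squares) of KLF2 replicate 1, KLF2 replicate 2 and vector replicate 2. Gzma, Rgs1, Gpr183 and Trgv2 stand above the squares in the KLF2 libraries, where Lef1 and Cd44 lie near them, and Klre1 has no UMI in the squares because they were chosen without it.

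The functional lists gave few calls, and their counts and medians are read beside 6.99% called and a median of -0.01 over all genes. Of 21 genes of T cell receptor signalling 2 fell (Cd5, Cd6; list median -0.12), and Lck, Zap70, Lat and the others did not pass. Of 20 residency and homing genes 2 rose (Rgs1, Cd44; median -0.35). Cd44, the hyaluronan receptor, had 189 and 212 CPM, against 53.8 CPM in the vector library. Control cells had 201 and 252 CPM in the KLF2 libraries and 48.2 CPM in the vector library for it. Of 17 granule genes only Gzma rose (median 0.14), and of 9 cytokine and chemokine genes Tnf fell (median -0.03). Tnf, the inflammatory cytokine, had 5.10 and 6.43 CPM, against 42.4 CPM in the vector library, from 1, 4 and 201 UMIs. Of 12 memory and survival genes Id3 rose (median -0.56). This transcription factor of memory precursors had 127 and 646 CPM, against 88.4 CPM in the vector library. That gene had 111 of its 402 UMIs of KLF2 replicate 2 in 1 cell and 1106 and 1033 CPM in the KLF2 libraries and 146 CPM in the vector library in control cells. Among 24 T cell transcription factors Bach2 and Id3 rose and Maf and Nr4a1 fell (median -0.35). Maf, which drives interleukin 10 and exhaustion programmes, had 25.5 and 19.3 CPM in the KLF2 libraries, against 136 CPM in the vector library (log2 fold change -2.93, SE 0.57, adjusted p 4.14e-05). Control cells had 36.0 and 29.6 CPM of Maf in the KLF2 libraries and 171 CPM in the vector library, more than the CD8 T cells in each library. For Tnf control cells had 11.4 and 31.3 CPM in the KLF2 libraries and 37.8 CPM in the vector library. Of 8 NK receptor genes Klre1 rose and the adaptor Tyrobp fell (median 0.91). Of 15 glycolysis genes the lactate transporter Slc16a3 rose (median 0.16). Of 20 cell cycle and 13 checkpoint and costimulation genes none was called (medians -0.16 and 0.26).

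KLF2 itself and the trafficking genes linked to it were not called. Klf2 had 249.8 and 484 CPM in the KLF2 libraries, against 577 CPM in the vector library (log2 fold change -0.89, SE 0.49, adjusted p 0.391), and 50 of the 301 UMIs of KLF2 replicate 2 lay in 1 cell. It was lower in KLF2 at an adjusted p of 0.00475 (edgeR, 9.41% of genes called) with the 5% of cells with most UMIs left out and of 0.00769 (edgeR, 10.8% called, 3.28% higher and 7.49% lower) after thinning, and in none of the other 7 alternatives. Thinned, Klf2 was seen in 16.1% and 18.2% of the KLF2 and 40.2% of the vector cells, against 24.7% and 29.6% of the KLF2 and 23.1% of the vector cells among endothelial cells, which make Klf2 themselves. The KLF2 plasmid was meant for liver cells, and whether its transcript counts towards Klf2 is not given in the sources used here. Of 14 trafficking genes tested, 2 had a fold change above 0, against 3738 of all 7538 genes tested. The other 12 lay below 0, and none of the 14 passed (median -0.80). Klf6, a relative of KLF2, had 540.3 and 556 CPM, against 848 CPM in the vector library. The sphingosine phosphate receptor S1pr4 had 30.6 and 16.1 CPM, against 43.7 CPM in the vector library. Both lay lower in both KLF2 libraries. The integrin chain Itgb7 had 133 and 80.4 CPM, against 143 CPM in the vector library. Cmah, an enzyme of sialic acid synthesis, had 15.3 and 6.43 CPM, against 30.4 CPM in the vector library, from 3, 4 and 144 UMIs. S1pr5 was too low to test.

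Most of the called heat shock genes fell. Of 12 tested, 5 fell and 1 rose, at a median of -1.01, against 3.6% falling over all genes. The proximal promoters of 3 of them are shown because they hold pairs of the inverted GAA repeat that heat shock factor is known to bind, in capitals, whether the gene fell or rose (RefSeq, GRCm38.p6, 250 bases before to 50 after the start).
Hspa1b (GRCm38.p6 chr17:34959189-34959488, minus strand): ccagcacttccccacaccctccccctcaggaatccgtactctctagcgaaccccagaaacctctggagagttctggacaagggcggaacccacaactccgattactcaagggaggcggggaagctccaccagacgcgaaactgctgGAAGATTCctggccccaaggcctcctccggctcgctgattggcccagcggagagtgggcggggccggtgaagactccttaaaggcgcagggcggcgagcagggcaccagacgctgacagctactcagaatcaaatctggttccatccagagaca
Hsph1 (GRCm38.p6 chr5:149636266-149636565, minus strand): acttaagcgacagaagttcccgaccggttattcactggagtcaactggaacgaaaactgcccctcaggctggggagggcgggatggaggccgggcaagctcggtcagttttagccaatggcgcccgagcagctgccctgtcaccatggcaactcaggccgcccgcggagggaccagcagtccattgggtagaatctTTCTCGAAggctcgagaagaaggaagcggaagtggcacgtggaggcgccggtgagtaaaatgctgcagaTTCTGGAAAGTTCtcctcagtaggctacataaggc
Hspb1 (GRCm38.p6 chr5:135887669-135887968, plus strand): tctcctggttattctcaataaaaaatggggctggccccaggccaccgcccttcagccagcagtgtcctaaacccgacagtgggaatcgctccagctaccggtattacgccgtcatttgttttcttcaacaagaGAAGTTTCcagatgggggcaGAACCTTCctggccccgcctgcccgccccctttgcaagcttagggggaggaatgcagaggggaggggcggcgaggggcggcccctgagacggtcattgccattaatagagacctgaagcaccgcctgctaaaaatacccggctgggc
The letters searched were GAANNTTC and TTCNNGAA on both strands, each its own reverse complement. In Hsph1 2 of the 3 matches overlap. Such a match was found in 15.06% of 32851 mouse promoters of this length, and 2 or more in 1.96%. Of the 14 promoters found for 9 heat shock genes 8 held a match (57.14%), some of them overlapping or near-identical stretches. By gene, 7 of the 9 had a match in at least 1 promoter. Dnajb1, which fell, and Hspa5 had none, while Dnaja1, Hspd1 and Hspe1, which were not called, had matches. A match is a description of these letters and not a binding site.

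Hspa1b, the inducible HSP70 chaperone with 1 match, had 148 and 188 CPM in the KLF2 libraries, against 636 CPM in the vector library (log2 fold change -2.17, SE 0.49, adjusted p 7.23e-04), and control cells had 98.2 and 138 CPM in the KLF2 libraries and 334 CPM in the vector library. Hspa1a, a near-identical copy whose reads the authors' counting could split, had 117 and 207 CPM in the KLF2 libraries, against 658 CPM in the vector library. Hsph1, a co-chaperone of that family with 3 matches, had 122 and 116 CPM in the KLF2 libraries, against 325 CPM in the vector library (log2 fold change -1.71, SE 0.50, adjusted p 0.0154), and control cells had 124 and 129 CPM in the KLF2 libraries and 98.5 CPM in the vector library. Hsp90aa1, the inducible HSP90, had 336 and 405 CPM, against 1096 CPM in the vector library (log2 fold change -1.82, SE 0.48, adjusted p 0.00613). The co-chaperone Dnajb1 had 138 and 172 CPM, against 365 CPM in the vector library (adjusted p 0.0497). Hsph1 was called in 5 of 9 alternatives and Dnajb1 in 3 of 9. All 5 lay lower in both KLF2 libraries. Hspb1, a small chaperone with 2 matches, went the other way with 199 and 862 CPM in the KLF2 libraries, against 32.9 CPM in the vector library (log2 fold change 3.77, SE 0.64, adjusted p 1.95e-06). Control cells had 1519 and 1596 CPM in the KLF2 libraries and 61.2 CPM in the vector library, and 1 cell held 289 of the 536 UMIs of KLF2 replicate 2. The constitutive Hspa8 had 1402 and 1473 CPM, against 2197 CPM in the vector library. Its HSP90 counterpart Hsp90ab1 had 2141 and 3068 CPM, against 2710.3 CPM in the vector library, and neither passed. Among 20 immediate early genes, which dissociation and receptor signals also induce, Nr4a1 and Fosb fell and Atf3 rose (median -0.56). Fosb had 112 and 297 CPM, against 544 CPM in the vector library. Atf3, a stress factor, had 102 and 553 CPM, against 18.8 CPM in the vector library. Control cells had 605 and 1109 CPM in the KLF2 libraries and 90.2 CPM in the vector library for Atf3. Jun had 805 and 1534 CPM, against 1370.5 CPM in the vector library. Junb had 1019.5 and 1077 CPM, against 1379 CPM in the vector library, and neither was called.

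A few genes of interferon response and antigen presentation fell. Of 20 interferon-stimulated genes 3 fell, Gbp4 and Ly6a among them (median -0.43). Gbp4, a guanylate-binding protein induced by interferon gamma, had 35.7 and 8.04 CPM in the KLF2 libraries, against 69.0 CPM in the vector library (log2 fold change -2.30, SE 0.61, adjusted p 0.00633). Ly6a had 127 and 74.0 CPM, against 260.0 CPM in the vector library (log2 fold change -1.68, SE 0.50, adjusted p 0.0201). Control cells were lower in KLF2 for both, with 0.909 and 2.35 CPM in the KLF2 libraries and 43.2 CPM in the vector library for Gbp4, and 34.7 and 36.8 CPM in the KLF2 libraries and 387 CPM in the vector library for Ly6a. Of 16 MHC class I genes H2-Q6 and H2-Q4 fell (median -0.68), near-identical relatives whose reads could be shared, with 96.8 and 98.1 CPM, against 289 CPM in the vector library for H2-Q6. Its control cells had 4.56 and 13.2 CPM in the KLF2 libraries and 108 CPM in the vector library, and whether these genes fell in CD8 T cells apart from their surroundings was not tested. B2m, the shared light chain, had 3389.7 and 2375 CPM, against 1999.9 CPM in the vector library. The heavy chain H2-K1 had 1804 and 1050 CPM, against 1715 CPM in the vector library, and neither passed.

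Mitochondrially encoded genes and markers of hepatocytes, endothelium and tumour were called in most of those tested. All 12 mitochondrially encoded genes tested fell (median -4.55). Hepatocyte markers fell in 10 of 11 tested (median -7.37). The fatty acid carrier Fabp1 had 0 and 0 CPM, against 388 CPM in the vector library. Control cells had 2.99 and 0.538 CPM in the KLF2 libraries and 573 CPM in the vector library for it. Of 9 endothelial markers 7 fell (median -5.43), led by Fabp4 with 5.10 and 14.5 CPM, against 696 CPM in the vector library. Tumour and biliary markers rose in 7 of 8 tested (median 3.07), with the interleukin 31 receptor gene Il31ra at 331 and 459.9 CPM, against 0.211 CPM in the vector library. Control cells had 455 and 550.3 CPM in the KLF2 libraries and 0.394 CPM in the vector library for it. Also among the 12 highest genes were the Wnt inhibitor Wif1 with 76.5 and 180.1 CPM, against 0 CPM in the vector library, where control cells had 648 and 439 CPM in the KLF2 libraries and 0.131 CPM in the vector library, and S100a14 with 15.3 and 161 CPM, against 0 CPM in the vector library. Cmss1, which is in none of these marker lists, had 8487 and 11801 CPM, against 13.5 CPM in the vector library. What sets this difference between the libraries was not tested. The remaining highest were Nkain2, AC099699.1, Prss56, Svopl, Cldn4, Cadps and Tpd52l1, each without a UMI in the vector library (Nkain2 and AC099699.1 missing from its gene list), and the remaining lowest were Acaa1b, Apoa2, Apoc3, Ly6c1, Cavin2, Gpihbp1, Apoc1, Ttr, Tm4sf1 and Gng11, genes of hepatocytes or endothelium for the most part.

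**Figure D5:**
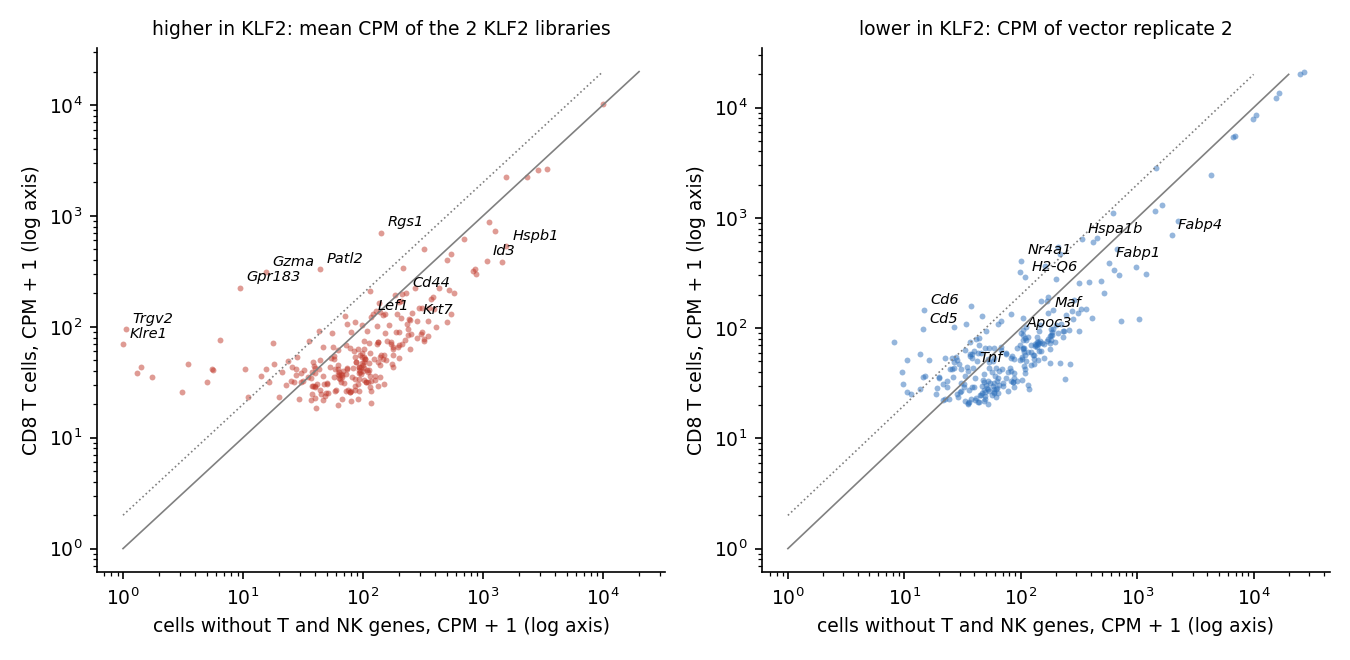
Each point is a called gene, with its CPM + 1 in cells without T and NK genes on the horizontal and in CD8 T cells on the vertical axis (both logarithmic), for genes higher in KLF2 (left, means of the 2 KLF2 libraries) and lower in KLF2 (right, vector replicate 2). The solid line marks equal levels and the dotted line 2-fold more in CD8 T cells on these axes. The 20 of 256 and 26 of 271 genes of the text were counted on plain CPM, in each KLF2 library or in the vector library, and not from this line.

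A change of tool or of cells bears on all of these calls. Of the DESeq2 calls, 136 higher and 60 lower genes were called by edgeR too. A choice of cells that demanded a Cd8b1 UMI, added after seeing the data, called none at 0.05 in edgeR (812 at an unadjusted p under 0.05), where the prior degrees of freedom were 3.18 in place of 126. Gzma, Patl2, Hspa1a, Hspa1b, Hsp90aa1, Hspb1 and Atf3 were called in all 9 other alternatives. Cd44, Id3, Fosb and Ly6a were called in 5 of 9, Gbp4 and Tyrobp in 4 of the 8 that tested them, Slc16a3 in 3 of 6 and H2-Q4 in 2 of 8, and none of these 8 genes with DESeq2.

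CD8 T cells were next compared with the 15, 58 and 768 CD4 T cells of the same 3 libraries, with the library as a block. Of 5961 genes the edgeR quasi-likelihood test called 15 (0.252%), 4 higher (0.0671%) and 11 lower (0.185%) in CD8. Ly6c2 was the highest, with 897, 299 and 369 CPM in CD8 T cells, against 0, 23.4 and 67.8 CPM in CD4 T cells (log2 fold change 3.41, SE 0.51, adjusted p 0.0289). It marks memory and recently activated CD8 T cells. Tcrg-C2, a constant segment of the gamma locus that CD8 T cells also transcribe, had 204, 138 and 67.1 CPM in CD8 T cells, against 25.1, 30.1 and 18.3 CPM in CD4 T cells (log2 fold change 2.19, SE 0.26, adjusted p 0.0112). Cd7, a surface marker of T and NK cells, had 214, 61.1 and 158 CPM in CD8 T cells, against 33.4, 16.7 and 56.8 CPM in CD4 T cells (log2 fold change 1.83, SE 0.27, adjusted p 0.0289). These 3 were higher in CD8 in each library; values are in the order KLF2 replicate 1, KLF2 replicate 2 and vector replicate 2.

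Of 12 checkpoint and costimulation genes tested, 3 were lower in CD8 than in CD4 T cells (Tnfrsf4, Tnfrsf18 and Icos). Cd40lg, the CD40 ligand of helper cells, had 5.10, 1.61 and 6.54 CPM in CD8 T cells, against 83.6, 63.5 and 57.0 CPM in CD4 T cells (log2 fold change -3.34, SE 0.38, adjusted p 0.00869). Tnfrsf4, the OX40 receptor, had 5.10, 17.7 and 27.2 CPM in CD8 T cells, against 409, 117 and 129.7 CPM in CD4 T cells (log2 fold change -2.71, SE 0.38, adjusted p 0.0249). Tnfrsf18, the GITR receptor of regulatory T cells, had 117, 80.4 and 46.6 CPM in CD8 T cells, against 501, 307 and 117 CPM in CD4 T cells (log2 fold change -1.61, SE 0.22, adjusted p 0.0249). All 3 were lower in CD8 in every library. Icos, a costimulator of helper cells, had 45.9, 35.4 and 57.8 CPM in CD8 T cells, against 125, 114 and 158 CPM in CD4 T cells (log2 fold change -1.43, SE 0.22, adjusted p 0.0362), and was called in 3 of 6 alternatives. The cytokine genes Il4 and Il10 and the genes Tff1 and Tbc1d4 were lower as well (log2 fold changes -5.17, -2.62, -2.85 and -2.45, adjusted p 0.0479, 0.0289, 0.0249 and 0.0236, edgeR), Il4 with 0, 1 and 1 UMIs in CD8 T cells and 5, 40 and 4 in CD4 T cells. Lta, Tnfsf8 and Sdf4 made up the 15. Without the block no gene was called (74 at an unadjusted p under 0.05), DESeq2 called 2 higher and 9 lower, and without the low-count filter 37 and 54 were called. Leaving out KLF2 replicate 1 gave 65 higher and 80 lower, KLF2 replicate 2 gave 13 and 27, and vector replicate 2 gave 12 and 17.

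Against NK cells, picked by at least 2 of 6 NK genes without any of the 5 T genes and numbering 5, 15 and 13, 66 of 2061 genes were higher (3.2%) and 37 lower (1.8%) in CD8 (5% called, edgeR with the library as a block). A looser NK rule, added after seeing the data, called 3.92% of 2194 genes, 2.28% higher and 1.64% lower. Pdcd1 had 122, 103 and 68.8 CPM in CD8 T cells, against 0, 0 and 0 CPM in NK cells. The NK cells gave only 17757, 76631 and 45955 UMIs in all, so a level of 0 in them, for this and the genes below, need not mean absence. Bcl11b, the T lineage factor, had 173, 91.7 and 207 CPM in CD8 T cells, against 0, 0 and 21.8 CPM in NK cells (log2 fold change 4.47, SE 0.98, adjusted p 4.12e-04). Cxcr6 had 265, 129 and 85.9 CPM in CD8 T cells, against 0, 39.1 and 0 CPM in NK cells (log2 fold change 2.94, SE 0.78, adjusted p 0.00739), a call lost without the block and without each library in turn (edgeR adjusted p 0.0584 to 0.31). Bcl11b was called in 2 of these 4 alternatives. Tcrg-C2 and Trgv2 had no UMI in NK cells of any library. On the lower side, the killing gene Gzma had 316, 309 and 30.6 CPM in CD8 T cells, against 5857, 3197 and 762 CPM in NK cells (log2 fold change -3.78, SE 0.33, adjusted p 1.30e-27). Prf1 had 56.1, 30.6 and 51.3 CPM in CD8 T cells, against 619, 378 and 152 CPM in NK cells. Both were higher in the NK cells of each library. The adaptor Tyrobp had 20.4, 49.8 and 114 CPM in CD8 T cells, against 1802, 2362 and 1436 CPM in NK cells. Fcer1g had 45.9, 54.7 and 78.7 CPM in CD8 T cells, against 1802, 1422 and 870.4 CPM in NK cells. All 9 NK receptor genes tested were lower in CD8, Klri2 and Klrc2 among them. Also named by size were Ifi27l2a, Mrps34 and Slc25a4, higher, and Klrb1b, Klrb1f and Itgax, lower. Leaving out KLF2 replicate 2 left 0 higher and 13 lower (edgeR, 234 at an unadjusted p under 0.05), leaving out KLF2 replicate 1 gave 125 and 41, and leaving out vector replicate 2 gave 17 and 50. Without the block 0 were higher and 4 lower (edgeR, 130 at an unadjusted p under 0.05).

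Whether KLF2 and vector differed otherwise in CD8 than in CD4 T cells was tested with the term for cell type by group, which called 7 of 7579 genes (0.0924%, edgeR), 6 higher (0.0792%) and 1 lower (0.0132%). The class II genes H2-Ab1, H2-Eb1 and H2-Aa were 3 of them, and 217 of the 237 H2-Ab1 UMIs in the CD8 T cells of KLF2 replicate 2 lay in 1 cell, as did 235 of 252 for H2-Eb1 and 202 of 215 for H2-Aa. Ccl3, a chemokine of activated T cells, was another. DESeq2 called none (7 at an unadjusted p under 0.05, against 117 in edgeR). Rgs1 and Gpr183 were not among the 7, and in CD4 T cells Rgs1 had 1270.2 and 1146 CPM in the KLF2 libraries and 287 CPM in the vector library, and Gpr183 201 and 194 CPM in the KLF2 libraries and 41.8 CPM in the vector library.

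V segment transcripts were sparse. A UMI of a beta chain V gene (Trbv) was seen in 35.5% and 25.3% of the CD8 T cells of the KLF2 libraries and 7.22% of the vector cells, and after thinning in 16.1% and 6.06% of the KLF2 cells and 2.16% of the vector cells, where endothelial cells had 0%, 0% and 0.0708%. For alpha chain V genes (Trav) the shares were 9.68% and 9.09% in the KLF2 libraries and 8.80% in the vector library, and thinned 6.45% and 2.02%, against 2.05%, where endothelial cells had 0%, 0% and 0.425%. After thinning, the Trbv interval of KLF2 replicate 1 (7.09% to 32.6%) lay above that of the vector library (1.39% to 3.35%), and that of KLF2 replicate 2 (2.81% to 12.6%) overlapped it. The most frequent Trbv gene made up 3 of 12, 7 of 31 and 18 of 67 detections of a Trbv gene in a cell, which was Trbv2 in KLF2 replicate 2 and Trbv12-2 in vector replicate 2, and 8, 14 and 16 Trbv genes were seen in all.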

How the data were processed

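Single-cell RNA libraries had been made from tumours with the DNBelab C Series droplet kit V3.0, per the labels' protocols. The authors deposited UMI counts per gene and cell, written by PISA 1.0 per the file headers, on GRCm38 per the submitters' processing notes. For aligner, annotation and cell calling, the sources used here give nothing. UMIs were summed per library and cell type, with no doublet caller run, and tested with edgeR 4.0.16 (R 4.3.3) by its quasi-likelihood test (TMM, filterByExpr, Benjamini-Hochberg 0.05). DESeq2 1.42.0 was the alternative tool. The members and gene lists were chosen with earlier results of these data known. KLF2 was compared with vector, and CD8 with CD4 and NK cells of the same libraries, the library being a block because both cell types came from 1 mouse. Each library is 1 mouse. The p-values rest mostly on a spread pooled across genes, and little on a gene's own spread between these libraries. Prior degrees of freedom, the weight of that pooled spread, were 126 beside 1 residual degree for KLF2 against vector. For CD8 against CD4 T cells they were 7.668 beside 2. For CD8 against NK cells and for the cell type by group term they were infinite.

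Named genes were called, averaged at least 30 scaled CPM and lay 2-fold from vector in each KLF2 library, the 12 highest and 12 lowest being taken without predicted, mitochondrial and ribosomal genes. From each functional list up to 4 called genes and the 2 of highest level were taken, from the state lists every gene, 8 each way against CD4 and NK cells, and 5 for the cell type by group term. Other genes in the text were chosen after their values were seen. Levels are plain CPM and fold changes come from TMM-scaled fits. Alternatives were other tools, filters, cell rules, depths and left-out libraries. On simulated counts the KLF2 fit recovered 8%, 60%, 84% and 88% of genes changed 2-, 4-, 8- and 16-fold, and called 5 of 7242 unchanged genes. All genes and libraries were simulated with the same dispersion (0.0966) and from 1 pooled profile, and only genes with at least 5 expected UMIs were changed. The simulation holds no difference in background between libraries, so it cannot show how many of the calls above are false. A few genes of the lists and calls are not reported here.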

Additional observations from a re-analysis of the deposited data

Results flagged for a closer look

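For 7 genes the change between KLF2 and vector differed between CD8 and CD4 T cells by the test of that difference (edgeR quasi-likelihood, Benjamini-Hochberg adjusted p under 0.05), and each is given as the log2 change in CD8 minus that in CD4 T cells. Mgp, a matrix protein gene, differed by 5.538, with 20.4 and 45.0 CPM in KLF2 and 26.0 CPM in vector CD8 T cells, and 16.7 and 10.0 CPM in KLF2 and 407 CPM in vector CD4 T cells, and 1 cell held 20 of the 28 UMIs of KLF2 replicate 2 and 58 of the 123 of vector CD8 T cells. Igkc, the antibody kappa chain, differed by 10.29, with 0 UMIs in KLF2 CD4 T cells, so that this size is not a bound. H2-Ab1, H2-Eb1 and H2-Aa, class II genes of antigen-presenting cells, differed by 3.35, 3.374 and 3.287. Ccl3, a chemokine of activated T cells, differed by 2.834, with 133 and 355 CPM in KLF2 and 187 CPM in vector CD8 T cells, and 25.1 and 46.8 CPM in KLF2 and 195 CPM in vector CD4 T cells. S100a9, a neutrophil gene, differed by -3.586, with 15.3 and 11.3 CPM in KLF2 and 47.7 CPM in vector CD8 T cells, and 8.36 and 93.6 CPM in KLF2 and 20.8 CPM in vector CD4 T cells, and 103 of the 226 UMIs of vector CD8 T cells lay in 1 cell. In cells without T and NK genes of the vector library, Mgp had 55.4 CPM, Igkc 1042 CPM and H2-Ab1 1446 CPM, and the part of free RNA or doublets in these differences was not tested.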

How the results depend on the processing

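For KLF2 against vector, 256 genes were higher and 271 lower. DESeq2 gave 154 and 60, the stricter cell rule 159 higher, no filter on low counts 163 lower, thinning 46 and 105, and equal cells per library 69 and 54. A required Cd8b1 UMI, chosen after seeing the data, gave 0 and 0 (812 at an unadjusted p under 0.05, edgeR). None was called in the opposite direction in these settings. Higher calls were 48.6% of all calls, and 71.96% with DESeq2. No filter put the median of all genes at -0.24, against -0.01. No paired analysis was possible because the KLF2 and vector libraries compared share only replicate number 2. The cause of these changes was not tested.

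With the library as the replicate block, 4 genes were higher and 11 lower in CD8 than in CD4 T cells; with no replicate block 0 and 0 were called. DESeq2 gave 2 higher, no filter 37 higher and 54 lower, and leaving out 1 library 12 to 65 higher and 17 to 80 lower. Against NK cells the block gave 66 and 37, no replicate block 0 and 4, and leaving out 1 library 0 to 125 higher and 13 to 50 lower. The looser NK rule, added after seeing the data, gave 50 and 36. The cell type by group term gave 0 higher and 0 lower with DESeq2.

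The CD8 share of cells was 0.360% in KLF2 replicate 2 when thinned and 0.585% under the stricter rule, and in vector replicate 2 it was 4.61% thinned, 8.12% under the stricter rule, 12.8% with at most 10% mitochondrial UMIs and 12.5% with at least 500 genes. CD8 among CD8 and CD4 cells was 92.6% and 71.4% in the KLF2 libraries and 57.1% in the vector library when thinned. With 1 gene enough for a state, naive-leaning cells were 29.0% and 25.3% in the KLF2 libraries and 23.1% in the vector library, effector-leaning cells 18.2% in KLF2 replicate 2 and 18.5% in vector, and exhausted-leaning cells 15.2% and 16.7% there. With 3 genes needed, naive-leaning cells were 6.06% in KLF2 replicate 2 and 2.503% in vector, effector-leaning cells 0% and 0% in the KLF2 libraries and 1.14% in vector, and exhausted-leaning cells 3.03% in KLF2 replicate 2 and 1.93% in vector. Unthinned, added after seeing the data, naive-leaning cells were 32.3% and 34.3% in the KLF2 libraries and 30.8% in vector, effector-leaning cells 12.1% in KLF2 replicate 2 and 13.9% in vector, and exhausted-leaning cells 29.0% and 17.2% in the KLF2 libraries and 19.1% in vector. Thinned to 700 UMIs, the vector shares were 6.095%, 4.97% and 4.515% for naive-, effector- and exhausted-leaning cells. Effector-leaning cells were then 6.45% and 3.03% in the KLF2 libraries and naive-leaning cells 8.08% in KLF2 replicate 2. With at most 10% mitochondrial UMIs the vector shares were 6.97% and 5.53% for naive- and effector-leaning cells.

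Single genes turned direction without being called: Ccr7 (-0.51 under the stricter rule, -0.31 with a Cd8b1 UMI), Il7r (0.40 with at most 10% mitochondrial UMIs, 0.29 with equal cells), S1pr1 and Igfbp4 (0.072 and 0.0464 thinned), Ctla4 (0.0266 under the stricter rule, 0.17 with equal cells), Tox (-0.0241 thinned) and Rgs16 (0.19 without the 5% of cells with most UMIs, 0.59 thinned). The 31 CD8 T cells of KLF2 replicate 1 limit every share and gene level of that library.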
